A study of Mus musculus with 6 samples.

Results

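Leukocyte homing and adhesion molecules are the proteins that let white blood cells leave the blood. They were examined through 9 genes, of 19057 named on the array, chosen by gene symbol with earlier results of these data known: the high endothelial venule genes Glycam1, Madcam1, Chst4 and Fut7, the selectin genes Selp and Sele, the adhesion molecule genes Icam1 and Vcam1, and the integrin gene Itgb7. The array carries 13 probes for them among 45281, and 9 of the 13, from 8 genes, lay far enough above background to be tested. Sele and 3 of the 4 Vcam1 probes did not. Illumina bead arrays had been hybridised with RNA of subcutaneous fat. The donors were male FVB mice aged 12 weeks, with 3 arrays from wild type mice and 3 from mitoNEET transgenic mice. MitoNEET is a mitochondrial outer membrane protein encoded by Cisd1. The sample descriptions of all 6 arrays, wild type included, begin with aP2, the name of a fat cell promoter often used to drive transgenes, but the labels do not state what drives this one. Nor do they say whether the 3 arrays of a group stand for 3 animals. If they do not, the spread behind every p-value is technical, and 3 arrays a group limit the precision in any case.

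Lymphocytes enter lymph nodes through high endothelial venules, whose plump endothelial cells display sulfated and fucosylated mucins that rolling lymphocytes grip. Rolling cells are then activated by chemokines and held by integrins that bind members of the immunoglobulin superfamily. In most other vessels, P- and E-selectin, ICAM1 and VCAM1 serve the same steps and are raised by inflammatory signals. Mouse subcutaneous fat contains capillaries and venules of the general kind, and the inguinal depot surrounds a lymph node. The labels name neither the depot nor whether nodes were removed.

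Values are intensities on the linear scale as deposited, and a probe counted as above background when it exceeded 55.4. The arrays had been made to share one distribution, with medians of about 54.8. Changes are differences of mean log2 intensity, transgenic less wild type, with standard errors (SE) from limma, and p-values were adjusted over all 22218 probes that passed the background filter. The fat cell gene Adipoq read 12856 on average in wild type and 15609 in transgenic tissue. Cisd1 read 915 ± 132 and 1086 ± 23.4 (SD, n = 3 each), with limma's adjusted p = 0.162. Summed intensities of 10 skeletal muscle genes were 28417 on wild type array 2 and 3387 to 5307 on the other 5 arrays.

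Of the 8 genes tested, 5 fell in transgenic tissue (Glycam1, Chst4, Icam1, Vcam1 and Itgb7) and 0 rose. Chst4 was counted through its first probe alone. By probe, 5 of the 9 tested fell. Over all 22218 probes, 7.3% fell and 5.67% rose at the same threshold, an adjusted p under 0.05 in limma. Of the 9 tested probes, 7 were lower on every transgenic array than on every wild type array, which was so for 15.4% of all probes, and 0 were higher on every transgenic array, against 19.4%. The background shares are given for scale only, since the 9 genes were chosen with earlier results known, and nothing particular to them is read from these counts. In addition, Madcam1 and Chst4 passed the background filter through their wild type arrays alone and so had to be lower in the transgenic group. Glycam1, Icam1, Vcam1, Itgb7 and Selp were above background on all 6 arrays. Of these 5 genes, 4 fell. The share that fell among all probes above background on all 6 arrays was 7.23%.

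**Figure D1:**
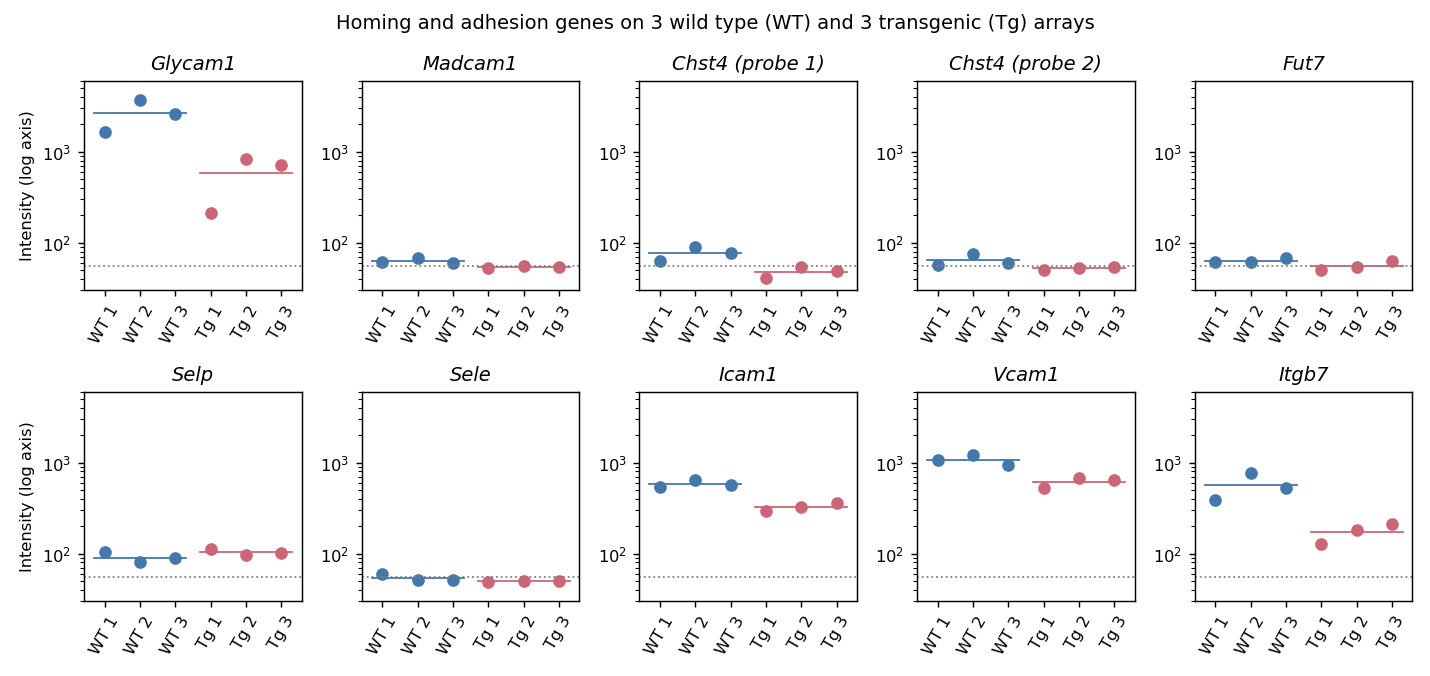
Intensity (log axis) of each gene on the 3 wild type (WT, blue) and 3 transgenic (Tg, red) arrays, with horizontal lines at the group means and a dotted line at the background threshold of 55.4; 3 dim Vcam1 probes are left out. Glycam1, Icam1, Vcam1 and Itgb7 stand clear of background with no overlap between groups, whereas Madcam1, Chst4, Fut7 and Sele lie near the dotted line.

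Glycam1 encodes a secreted sulfated mucin of high endothelial venules that carries the sugars lymphocytes adhere to, and in mice it is also made by the mammary gland. Its probe (Entrez Gene 14663) read 1662, 3734 and 2586 on wild type arrays 1, 2 and 3. On transgenic arrays 1, 2 and 3 it read 212, 832 and 712. All 3 wild type arrays were above all 3 transgenic arrays, with wild type array 2 the highest and transgenic array 1 by far the lowest. The means were 2660.5 ± 1038 and 585 ± 329 (SD, n = 3 each), a 5.04-fold fall (log2 -2.33, SE 0.48, 95% interval -3.41 to -1.25, adjusted p = 0.0201). Glycam1 no longer passed without wild type array 2 (log2 -2.05, adjusted p = 0.074), without transgenic array 2 (log2 -2.70, adjusted p = 0.05005) and in limma's trended and robust moderation (adjusted p = 0.107). Without transgenic array 1 the change was smaller, at -1.71 (adjusted p = 0.0311).

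The other high endothelial venule genes were dim. Chst4 encodes the sulfotransferase that adds sulfate to these sugars in high endothelial venules (Entrez Gene 26887). Its first probe read 62.6, 90.7 and 78.1 on wild type arrays 1 to 3. All 3 transgenic arrays, at 41.2, 54.0 and 48.8, were below background. The transgenic level has only an upper bound. With transgenic values set to the lowest intensity above background, wild type was 1.38-fold higher, an estimate that leaves out sampling error. The fitted difference was -0.68 on the log2 scale (SE 0.15, adjusted p = 0.0239), with means of 77.1 ± 14.1 and 48.0 ± 6.44 (SD, n = 3 each). A second Chst4 probe read 57.0, 76.2 and 59.9 in wild type tissue and 50.1, 53.2 and 54.4 in transgenic tissue. Its groups were also apart, but it did not pass (log2 -0.28, SE 0.12, adjusted p = 0.144), so the probes of Chst4 disagree on the call. Leaving out any transgenic array ended the call of the first probe (adjusted p 0.0565 to 0.0782), and without any wild type array it could not be tested.

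Madcam1 and Fut7 did not pass. Madcam1 encodes the mucosal addressin, the venule ligand of the integrin that Itgb7 forms with Itga4 (Entrez Gene 17123). It read 61.4, 68.6 and 59.5 on the wild type arrays and 52.7, 55.3 and 54.3 on the transgenic arrays. All transgenic values were below background and all wild type values only just above it. The fitted log2 difference was -0.22 (SE 0.09, adjusted p = 0.13). With transgenic values set to the lowest intensity above background, wild type was 1.14-fold higher, an estimate that leaves out sampling error. Fut7, the fucosyltransferase gene that completes the selectin-binding sugar sialyl Lewis x in venules and in leukocytes (Entrez Gene 14347), read 61.3, 61.7 and 68.7 against 50.9, 54.4 and 62.9. Its groups overlapped and only 1 transgenic array was above background. Its log2 difference was -0.19 (95% interval -0.43 to 0.04, adjusted p = 0.246).

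The selectin genes showed no fall that passed the test. Selp encodes P-selectin of platelets and endothelial storage granules (Entrez Gene 20344). It read 103, 80.1 and 88.5 in wild type tissue and 111, 96.8 and 101 in transgenic tissue. The groups overlapped, and the log2 difference was 0.19 (SE 0.11, 95% interval -0.06 to 0.44, adjusted p = 0.281). That interval excludes falls of the size seen in Icam1 and Vcam1, but not a modest rise. Sele, the gene of cytokine-induced endothelial E-selectin (Entrez Gene 20339), read 60.4, 51.3 and 50.8 against 48.4, 49.98 and 50.5. The groups were apart by a narrow margin. Only wild type array 1 was above background, so Sele was not tested with the others and its readings give no level.

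Icam1 and Vcam1 fell by similar amounts. ICAM1 is the ligand of the leukocyte integrin formed by Itgal and Itgb2, and occurs on activated endothelium, stromal cells and leukocytes. Icam1 (Entrez Gene 15894) read 544, 640.0 and 572 on wild type arrays 1 to 3, and 292, 325 and 359 on transgenic arrays 1 to 3. The groups were well apart, and the spread within each was small. The means were 585 ± 49.5 and 325 ± 33.1 (SD, n = 3 each), with a log2 change of -0.85 (SE 0.11, 95% interval -1.09 to -0.61, adjusted p = 0.0124). VCAM1 binds the integrin formed by Itga4 and Itgb1, and is found on activated endothelium and on stromal cells of lymphoid tissue and bone marrow. The Vcam1 probe matched to its RefSeq transcript (Entrez Gene 22329) read 1073, 1205 and 936 against 527, 676 and 636, again with no overlap. Its log2 change was -0.81 (SE 0.13, 95% interval -1.09 to -0.52, adjusted p = 0.0126). Both genes passed in each of the 6 fits that left out 1 array, with changes of -0.92 to -0.77 for Icam1 and -0.90 to -0.70 for Vcam1, and an adjusted p of at most 0.0481.

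The other Vcam1 probes, annotated to cDNA clones rather than to the RefSeq transcript, gave no reading that could be compared. Their intensities lay between 44.4 and 60.7, with at most 2 of 6 arrays above background on any of them. In a fit of all 45281 probes without the filter, in which 3.55% fell and 2.73% rose, 0 of these 3 probes passed. Their log2 differences were -0.03, 0.05 and -0.09 (adjusted p 0.764 to 0.914). Sele had a log2 difference of -0.12 there (95% interval -0.31 to 0.07, adjusted p = 0.545).

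Itgb7 showed the second largest change of the 9 genes. It encodes the beta subunit of the gut-homing integrin with Itga4 and of the epithelial-binding integrin with Itgae, and it is expressed by lymphocytes (Entrez Gene 16421). It read 390.1, 770.4 and 529 on wild type arrays 1 to 3 and 126, 183 and 209 on transgenic arrays 1 to 3. The lowest wild type array was well above the highest transgenic array. The means were 563 ± 192 and 173 ± 42.5 (SD, n = 3 each), a 3.20-fold fall (log2 -1.68, SE 0.25, 95% interval -2.25 to -1.11, adjusted p = 0.0124). It passed without each single array, at -1.92 to -1.43 on the log2 scale. Its partner genes, named after their values were seen, also fell. Itga4, near background with 2 transgenic arrays above it, went from 79.2 ± 12.4 to 58.2 ± 3.76 (log2 -0.43, limma's adjusted p = 0.0493). Itgae went from 319 ± 77.1 to 192 ± 25.7 (log2 -0.71, limma's adjusted p = 0.0293).

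**Figure D2:**
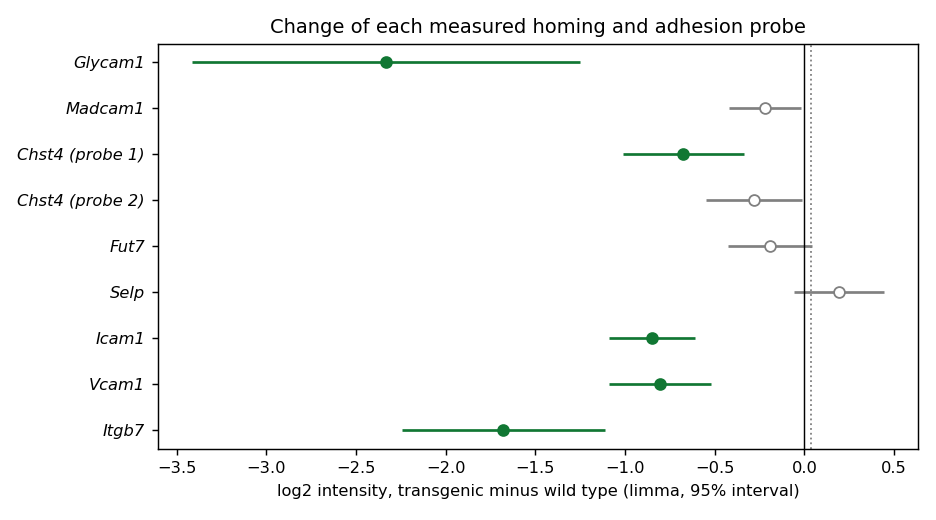
Log2 change, transgenic minus wild type, of the 9 tested probes with 95% intervals from limma; filled green points passed an adjusted p under 0.05, open grey points did not, and the dotted line marks the median of all 22218 probes. Glycam1 (-2.33) and Itgb7 (-1.68) changed most, Icam1 and Vcam1 lie near -0.8, and the Selp interval spans 0.

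The upstream sequences of 3 of these genes are shown because they place the largest fall, a dim venule gene and an adhesion molecule gene side by side. Promoters of 8 of the 9 genes were found in RefSeq sequences of GRCm38.p6, 9 promoters in all. Capitals mark matches on either strand to GGNNNTTCC, a loose core of the site bound by NF-kappaB, the inflammatory transcription factor. The motif was chosen with the known biology of Icam1 in mind. Each line gives the 250 bases before the annotated start, 5′ to 3′ on the gene's strand.
Glycam1, chr15:103565082-103565331, minus strand: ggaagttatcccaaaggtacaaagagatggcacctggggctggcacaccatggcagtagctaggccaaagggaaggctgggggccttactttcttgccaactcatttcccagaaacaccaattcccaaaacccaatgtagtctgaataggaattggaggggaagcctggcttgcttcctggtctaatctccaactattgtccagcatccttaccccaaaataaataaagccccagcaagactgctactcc
Madcam1, chr10:79664309-79664558, plus strand: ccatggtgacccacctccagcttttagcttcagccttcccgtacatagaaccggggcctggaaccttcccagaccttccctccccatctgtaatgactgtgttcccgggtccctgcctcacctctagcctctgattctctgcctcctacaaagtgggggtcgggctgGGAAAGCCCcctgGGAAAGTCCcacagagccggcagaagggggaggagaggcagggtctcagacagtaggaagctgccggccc
Icam1, chr9:21015690-21015939, plus strand: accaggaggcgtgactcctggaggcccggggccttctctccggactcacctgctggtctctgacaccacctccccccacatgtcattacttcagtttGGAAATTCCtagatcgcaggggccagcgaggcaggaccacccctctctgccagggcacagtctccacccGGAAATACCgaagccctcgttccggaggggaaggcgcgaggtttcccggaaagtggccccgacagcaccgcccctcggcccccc
Icam1 had matches that start at positions -153 and -84 from the start site, and Madcam1 at -83 and -70. Glycam1 had none in this window, nor did Chst4, Fut7 or Itgb7. Selp and Sele each had 1 match. In all, 4 of the 9 promoters held the motif, as did 18.5% of 32851 promoters of the same 300-base length. A match is a description of letters and not evidence of binding.

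Across arrays, the fallen genes kept much the same order. Wild type array 2 was the highest and transgenic array 1 the lowest for Glycam1, Icam1, Vcam1 and Itgb7. As deviations from the 6-array mean, Glycam1 stood at 1.73 on wild type array 2 and -2.41 on transgenic array 1, and Itgb7 at 1.35 and -1.26. Icam1 and Vcam1 had narrower ranges, from 0.56 to -0.57 and from 0.58 to -0.61. Selp followed no such order, with -0.26 and 0.21 on those arrays.

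Marker lists of lymphocytes and of lymph node stroma were lower in transgenic tissue, and general endothelial genes were not. Of 9 measured B cell genes 9 fell, with a median log2 change of -1.40. Blk, a B cell kinase gene, changed by -1.76, Cd22 by -1.61 and Vpreb3 by -1.06. Of 11 measured T cell genes 9 fell, with a median of -1.73, among them Zap70 (-1.71), Cd6 (-2.27) and Cd4 (-0.65). Among 13 measured genes of lymph node stroma and high endothelial venules other than those above, 9 fell and 0 rose, with a median of -0.74. Fcer2a, an IgE receptor gene of B cells and follicular dendritic cells, changed by -1.67. The B cell chemokine Cxcl13 changed by -2.32 and the lymphotoxin gene Lta by -0.74. The 4 measured genes of this list that did not pass were Ubd (-0.43), Tnfsf11 (-0.40), Nkx2-3 (0.09) and Ltbr (0.20). Fcer2a and the lymphotoxin genes Lta and Ltb are not genes of stroma alone, so this list is not independent of the lymphocyte lists. Summed intensities ran from 8353 to 13791 on the wild type arrays and from 2723 to 5249 on the transgenic arrays for T cells, from 3340 to 5563 and 682 to 1441 for B cells, and from 8179 to 14138 and 1524 to 4479 for node stroma, with no overlap in any of these lists. The T cell sums include Cd8b1, which averaged 1894 in wild type and 1782 in transgenic tissue (log2 -0.09, limma's adjusted p = 0.60). It supplied 1851 of the 2723 on transgenic array 1. Of all 11549 named genes tested, 7.76% fell and 5.62% rose, with a median of 0.03. Without transgenic array 2 the fallen genes numbered 0 for T cells, 7 for B cells and 1 for node stroma. The medians there were -1.91, -1.46 and -1.26, the last over 12 genes. Without wild type array 2 the fallen genes numbered 1, 9 and 2, with medians of -1.52, -1.22 and -0.58. Calls were few in general there: 269 of 21603 probes fell without transgenic array 2, and 425 of 21522 without wild type array 2. The part of lymphoid tissue in the falls of Glycam1, Chst4, Icam1, Vcam1 and Itgb7 was not tested, and in bulk tissue fewer cells of a type cannot be told apart from less RNA per cell.

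Of 21 measured general endothelial genes 0 fell and 2 rose, with a median of 0.27. The risen share was 9.52%, near the 5.62% of all 11549 named genes tested that rose. Among all named genes 7.76% fell. Cdh5, vascular endothelial cadherin, rose 1.59-fold (log2 0.67, SE 0.17, adjusted p = 0.0379), and the transcription factor gene Sox17 rose 1.36-fold. Gpihbp1, the capillary anchor of lipoprotein lipase, had a log2 difference of 1.09 (adjusted p = 0.0543). Pecam1 and Icam2, adhesion molecules of all endothelium named after their values were seen, had log2 differences of 0.09 and -0.03 (adjusted p = 0.698 and 0.926). The mean deviation of the endothelial list ran from -0.36 to 0.15 on the wild type arrays and from 0.11 to 0.19 on the transgenic arrays, so the groups overlapped. Its summed intensity ran from 14801 to 22519 on the wild type arrays and from 22219 to 22413 on the transgenic arrays. Leaving out wild type array 3 raised its number of risen genes to 12, and leaving out any other single array lowered it to 0.

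**Figure D3:**
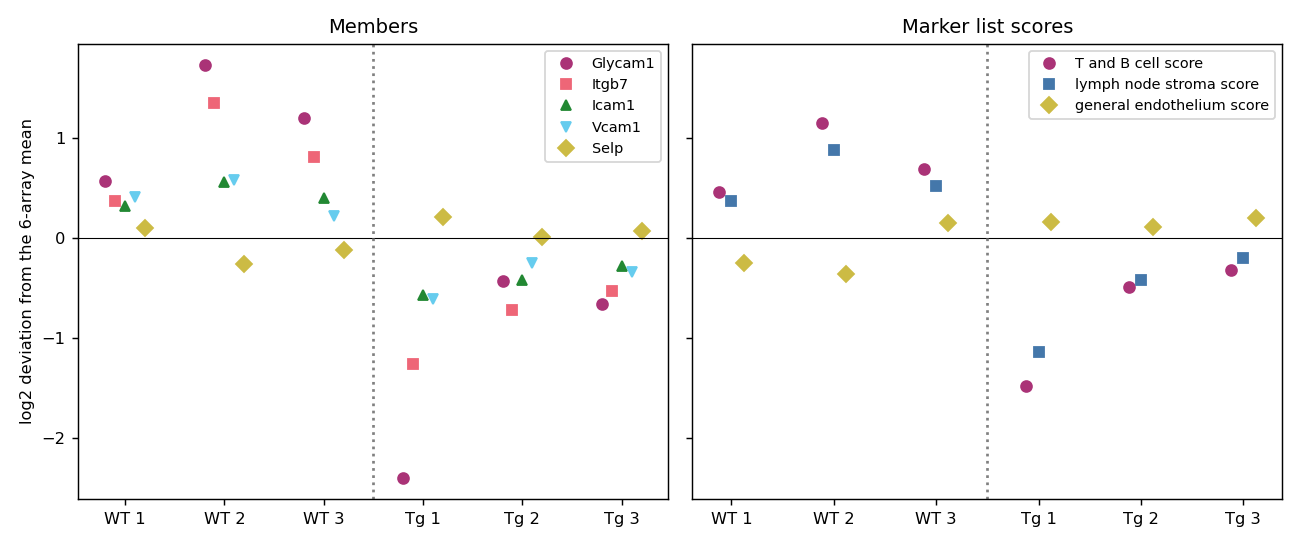
Log2 deviation from the 6-array mean on each wild type (WT) and transgenic (Tg) array, for 5 genes (left) and for the mean of the T and B cell, lymph node stroma and general endothelium lists (right). Glycam1, Itgb7, Icam1 and Vcam1 are highest on WT 2 and lowest on Tg 1, as are the lymphocyte and node scores, whereas the endothelial score does not separate the groups.

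The 4 fallen genes above background on all arrays were next set against these scores on each array. The combined T and B cell score differed by -1.53 on the log2 scale between groups, the node stroma score by -1.18 and the endothelial score by 0.31. Relative to the endothelial score, the group difference was -2.64 for Glycam1, -1.99 for Itgb7, -1.16 for Icam1 and -1.11 for Vcam1. None overlapped, as before the subtraction. The endothelial score moved the other way, so these differences had to exceed the falls themselves and are not further evidence. Relative to the T and B cell score, Glycam1 differed by -0.80 and Itgb7 by -0.15, the latter with overlap. Glycam1 did not overlap, but narrowly, with 0.11 on wild type array 1 and 0.06 on transgenic array 2. The score averages bright and dim genes, whose changes ran from -0.09 for Cd8b1 to -2.45 for Fcmr. The -0.80 therefore depends on the genes in the score and does not set Glycam1 apart from every lymphocyte gene. Icam1 and Vcam1 differed by 0.68 and 0.73 in the other direction, that is, they fell less than the lymphocyte score did. Relative to the node stroma score, Glycam1 differed by -1.16 and Itgb7 by -0.50, both without overlap. Icam1 and Vcam1 differed from it by 0.33 and 0.37, both with overlap. The node stroma score also averages bright and dim genes. These are differences of values and were not tested; 3 against 3 arrays allow no exact permutation p below 0.1. With the T and B cell score as a covariate in limma, Glycam1 had a log2 difference of 0.21, Icam1 -0.47, Vcam1 -0.37 and Itgb7 -0.47, and none passed (adjusted p 0.812 to 0.913). With the endothelial score as a covariate the differences were -2.19, -0.80, -0.60 and -1.54, and none passed either (adjusted p 0.302 to 0.312). In both of these fits 0 of 22218 probes passed, with 1322 and 2781 at an unadjusted p under 0.05, so the loss of calls was general. The T and B cell score did not overlap between groups (0.46 to 1.15 on wild type arrays, -1.48 to -0.32 on transgenic arrays). The fit with that covariate therefore separates the score poorly from the group, and no conclusion is drawn from its differences.

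The other marker lists comprised lymphatic endothelium, macrophages, adipocytes, muscle and epithelium. The scale for their counts is again the 7.76% of all named genes that fell and the 5.62% that rose. Of 6 measured lymphatic endothelial genes 2 fell, Reln (log2 -0.44) and the scavenger receptor gene Stab2 (-0.40), and Pdpn did not pass (log2 -0.57, adjusted p = 0.0981). The 2 lymphatic calls were kept in number only without transgenic array 3, and 0 or 1 passed in the other fits that left out 1 array. Of 14 macrophage and myeloid genes 0 passed, and C1qb, Adgre1 and Mpeg1 had log2 differences of 0.37, 0.46 and -0.46. Of 13 adipocyte genes 8 rose, with a median of 0.45, among them Pparg (0.63), Slc2a4 (0.55) and Aqp7 (0.59). The number of risen adipocyte genes was 0 without transgenic array 2, 1 without wild type array 2, 2 without transgenic array 1 or 3, and 6 and 7 without wild type arrays 1 and 3. The list's median stayed between 0.36 and 0.56 in these fits. Of 10 skeletal muscle genes 0 passed, with Eno3, Tnni2 and Tnnt3 at -0.89, -1.48 and -1.04 and wild type array 2 far above the rest. Of 4 epithelial genes 0 passed, with Krt14, Krt10 and Krt8 at 0.64, 0.36 and 0.09.

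The rest of the homing pathway follows by role. Among all 11549 named genes tested, 7.76% fell and 5.62% rose, which is the scale for each list count below. These lists share genes with the marker lists above, so some calls are counted again. Chst2, the chemokine genes Cxcl13, Ccl19, Ccl21a and Ccl21c, and the inducer genes Lta and Ltb are also in the node stroma list, and Cdh5 is in both the endothelial and the junction protein list. Of 16 measured genes of selectin ligands and the enzymes that build them, 5 fell and 2 rose, with a median of -0.01. Selplg, the P-selectin ligand of leukocytes, went from 826 ± 218 to 300.1 ± 88.7 (log2 -1.48, SE 0.24, adjusted p = 0.0138). The leukocyte sialomucin gene Spn changed by -1.01 and the hyaluronan receptor gene Cd44 by -0.56, and the sialyltransferase gene St3gal6 rose by 0.49. Chst2 and Fut4, a sulfotransferase and a fucosyltransferase gene that act beside Chst4 and Fut7, changed by -0.48 and -0.47 and are named after their values were seen.

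Of 14 measured leukocyte integrin and integrin activator genes 6 fell and 0 rose, with a median of -0.36. Cytip, a regulator of integrin adhesion in lymphocytes, changed by -1.93, Rassf5, a Rap effector gene, by -1.77, Fermt3, the kindlin gene of blood cells, by -1.005, and Apbb1ip, a Rap effector that recruits talin, by -0.72. Itgal and Itgb2, the receptor pair of ICAM1, had log2 differences of -0.24 and -0.03 that did not pass (adjusted p = 0.543 and 0.855) and are named after their values were seen, with Itgb2 near background at 68.0 and 66.4.

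Homing chemokines and their receptors held the largest pathway falls. Of 16 measured genes 8 fell and 0 rose, with a median of -0.59. Cxcl13 went from 1657 ± 516 to 350.4 ± 178, and its receptor gene Cxcr5 from 197 ± 44.4 to 87.2 ± 13.5 (log2 -1.16, SE 0.17, adjusted p = 0.0124). Cxcr4 changed by -0.90 and Ccl5, a T cell chemokine gene, by -2.18. Ccl21a and Ccl21c, which are also in the list and were called, belong to a group of near-identical genes, and cross-binding of their probes was not examined.

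Immunoglobulin superfamily and junction proteins held more rises than falls. Of 12 measured genes 5 rose and 1 fell, with a median of 0.41. Mcam rose from 1185 ± 171 to 1746 ± 149 (log2 0.57, SE 0.12, adjusted p = 0.0229), and the nectin-like receptor gene Pvr by 0.56. Cd47, an integrin-associated protein gene, alone fell (log2 -0.53, SE 0.12, adjusted p = 0.0231).

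Of 19 measured inducers and regulators of endothelial adhesion molecules 10 fell and 1 rose, with a median of -0.36. Relb, a subunit of the non-canonical NF-kappaB pathway, read 318, 352 and 309 on wild type arrays 1 to 3 and 172, 188 and 179 on transgenic arrays 1 to 3. The spread within each group was small beside the gap (log2 -0.86, SE 0.09, adjusted p = 0.0124). Map3k14, the kinase of the same pathway, changed by -0.81, Nfkbie, an NF-kappaB inhibitor gene, by -1.08 and Tnf by -0.74. The gene that rose was Nos3, the endothelial nitric oxide synthase (log2 0.37, adjusted p = 0.0419), named after its value was seen. Because the list holds inhibitors such as Nfkbie beside inducers, its count is not a count of inducing signals. Over the fits that left out 1 array, 3 to 10 inducer and regulator genes fell, and 2 to 8 chemokine genes. For integrins the number was 1 to 7 and for selectin ligands 1 to 5. The fewest in each case fell without transgenic array 2 or wild type array 2. The risen junction protein genes ran from 0 to 6.

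**Figure D4:**
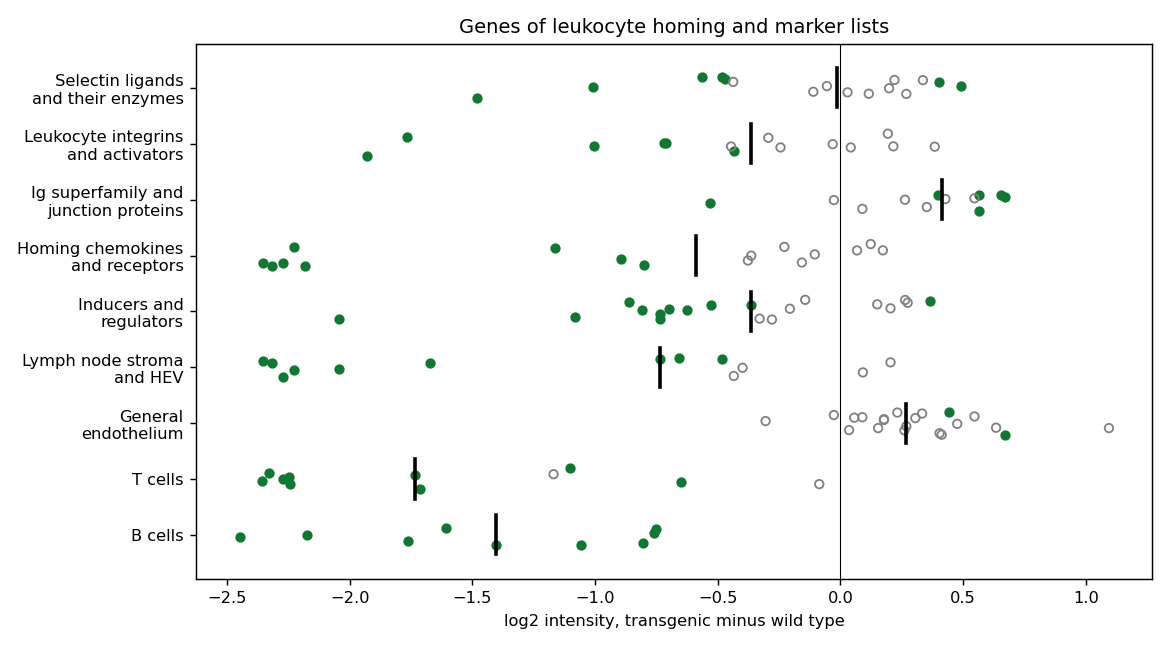
Log2 change, transgenic minus wild type, of each measured gene in 5 homing pathway lists and 4 marker lists; filled green points passed an adjusted p under 0.05 in limma, open points did not, black bars are list medians, and vertical jitter carries no meaning. All measured T and B cell genes and 11 of 13 lymph node genes lie left of 0, and general endothelium and junction proteins lie mostly right of it.

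Glycam1 and Icam1 were last set against all other named genes by their profiles over the arrays. Likeness was measured as the root mean square difference of mean-centred log2 values over the 6 arrays, among 11548 other named genes. For Glycam1 the nearest were Pou2af1, a B cell coactivator gene, the T cell surface gene Cd6, the IgM receptor gene Fcmr, Cd52 and Cd3e, at 0.175 to 0.196. Their log2 changes ran from -2.45 to -2.13. For Icam1 they were Got2, a mitochondrial aminotransferase gene, the arrestin gene Arrb2, Abhd8, the replication helicase subunit gene Mcm2 and the DNA helicase gene Ddx11, at 0.0508 to 0.0748, with changes of -0.89 to -0.78. The measure favours genes whose changes are of the same size, so distances for the 2 genes are not comparable.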

How the data were processed

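Gene expression was measured in 6 samples of mouse subcutaneous adipose tissue, 3 wild type and 3 transgenic, grouped by their titles. Per the labels' protocols, total RNA was purified and biotin-labelled cRNA hybridised to Illumina arrays. The deposited table holds linear intensities. How the authors normalized it is not stated in the labels. Its sorted columns match within 0.157, as after quantile normalization, and its lowest deposited intensity is 32.4. Whether the authors subtracted background is not stated. Scanner output (24 columns) was not used because its column names match no sample's labels.

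Log2 intensities were fitted without covariates by lmFit and eBayes (limma 3.58.1, R 4.3.3), with Benjamini-Hochberg adjustment over all tested probes and a threshold of 0.05. The background mode was 47.8 and the threshold lay 1.6 spreads of the values below the mode above it, at 55.4. A probe was kept when above it on at least 3 of 6 arrays, which left 22218 of 45281. For lists, each gene was read at its kept probe of highest mean. A list's score is the mean deviation of its genes from their 6-array means. Platform annotation, which can be old, names a single gene for 34885 probes, more than 1 for 18, and no gene for 10378; 34807 matched a GRCm38.p6 gene table by Entrez number. No build is stated for the array.

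The members and lists were chosen with earlier results of these data known. Named were every member, up to 4 called genes of smallest p per pathway list, 3 genes of smallest p per marker list, and the 5 genes nearest to Glycam1 and to Icam1. Alternatives covered background, offset, filter, probe choice, moderation, array weights, a replicate block, centring, 2 covariates, the threshold and arrays left out; list counts without arrays were added after the data were seen.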

Additional observations from a re-analysis of the deposited data

How the results depend on the processing

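Of 22218 probes, 2883 passed (1623 lower and 1260 higher), and 5 of the 9 genes were called lower. With each array left out in turn the number of probes ran from 300 to 3137 and the number of genes called lower from 3 to 4, with 3 both without wild type array 2 and without transgenic array 2. Without transgenic array 2 300 probes passed (269 lower, 31 higher), without wild type array 2 511 (425, 86), without transgenic array 1 803 (617, 186), without transgenic array 3 1652 (1130, 522), without wild type array 1 2690 (1640, 1050) and without wild type array 3 3137 (1500, 1637). Without wild type array 2 and transgenic array 1 together 472 probes passed (425 lower, 47 higher) and 4 genes were called lower. With fewer arrays, Madcam1 and Chst4 could not be tested where a wild type array was left out. An adjusted p under 0.10 gave 4896 probes (2408 lower, 2488 higher) and the same count of 5 genes. With a covariate of the T and B cell score, 0 probes and 0 of the genes passed, and likewise 0 and 0 with the endothelial score. With the T and B cell covariate the log2 difference changed sign for Glycam1 (0.21, SE 0.29) and the second Chst4 probe (0.062, SE 0.22). It also did for Fut7 (0.033, SE 0.21) and Selp (-0.16, SE 0.20). Each of these differences was smaller in size than its SE. The score did not overlap between groups, so this fit separates it poorly from the group. The cause of the sign changes was not tested. Background subtraction gave 1940 probes, 1288 lower and 652 higher, and larger changes for dim genes (log2 -1.26 for Chst4 and -0.48 for Madcam1). The other alternatives kept 4 or 5 genes called lower and none higher. Samples of the same number were not known to be paired: the correlations of their deviations from the group means were 0.39, 0.20 and -0.02, and the replicate block gave 3545 probes and 5 genes. Signal over background limits what can be said of Madcam1, Chst4, Fut7 and Sele. Among list genes called lower, Blk, Cd22 and Itga4 had 2 transgenic arrays above background, and Cd4 and Stab2 had 1. The sizes of those falls are uncertain for the same reason.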
